A study of Mus musculus with 2 samples.

Results

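Antigen presentation by major histocompatibility complex (MHC) class I was described in primary mouse hepatocytes through 10 genes: the heavy chains H2-K1, H2-D1 and H2-T23, the light chain B2m, the peptide transporter genes Tap1 and Tap2, the loading factor Tapbp, and the immunoproteasome subunits Psmb8, Psmb9 and Psmb10. They were chosen by symbol, with earlier results of these data known, and all 10 were found among the 14339 named genes of the expression table. Poly-A RNA was sequenced from hepatocytes transfected with ClpP siRNA, which targets the protease subunit of a mitochondrial matrix protease, and from hepatocytes transfected with GFP siRNA, the control, against a protein that mouse cells do not make. Each group held 1 library, so every difference below is a difference between 2 libraries, with no replicate, no test and no error. The strain, age and sex of the mice, the siRNA dose and the time of harvest are not given in the sources used here.

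Class I molecules display peptides from inside the cell to CD8 T cells. The proteasome cuts proteins into peptides, the transporter TAP carries them into the endoplasmic reticulum, and tapasin (Tapbp) holds empty class I molecules beside TAP until a peptide binds. Each class I molecule pairs a polymorphic heavy chain with the invariant light chain beta-2 microglobulin (B2m). In the immunoproteasome, Psmb8, Psmb9 and Psmb10 take the places of the catalytic subunits Psmb5, Psmb6 and Psmb7 in newly built 20S cores, which changes the peptides released. Interferons are the classic inducers of these genes, and hepatocytes, like other nucleated cells, present on class I.

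FPKM, the number of sequenced fragments of a gene corrected for transcript length and library size, totalled 535135 in the ClpP siRNA library and 532302 in the GFP siRNA library, and read depth is unknown. Differences are given as a log2 ratio, log2(FPKM + 1) with ClpP siRNA minus log2(FPKM + 1) with GFP siRNA, so that 1 is 2-fold. Clpp itself stood at 9.32 FPKM with ClpP siRNA, against 45.1 FPKM with GFP siRNA, a log2 ratio of -2.16. Hepatocyte markers were present in both libraries, with albumin (Alb) at 6245 FPKM under ClpP siRNA and 2952 FPKM under GFP siRNA.

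Promoter windows are shown so that the letters at the starts of some of the 10 genes can be read side by side. B2m, among those shown, was below 2-fold. RefSeq windows (GRCm38.p6, 250 bases before to 50 after a transcript start) were matched for 9 of the 10 genes by symbol, all but Tap2. The windows below are those of H2-K1 and H2-D1, the most abundant heavy chains, of B2m, and of Tap1, whose window overlaps that of Psmb9. Capitals mark matches on either strand to an NF-kB site, the interferon regulatory factor (IRF) core AANNGAAA, the CREB core TGACG and the CCAAT box (CCAAT, or ATTGG when read on the other strand).
H2-K1, chr17:34000284-34000583, minus strand: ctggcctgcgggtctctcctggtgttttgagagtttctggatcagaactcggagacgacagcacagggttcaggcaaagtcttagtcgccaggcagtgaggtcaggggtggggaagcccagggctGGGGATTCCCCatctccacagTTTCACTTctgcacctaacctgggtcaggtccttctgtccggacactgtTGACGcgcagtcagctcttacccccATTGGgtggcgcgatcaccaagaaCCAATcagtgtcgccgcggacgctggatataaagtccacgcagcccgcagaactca
H2-D1, chr17:35262844-35263143, plus strand: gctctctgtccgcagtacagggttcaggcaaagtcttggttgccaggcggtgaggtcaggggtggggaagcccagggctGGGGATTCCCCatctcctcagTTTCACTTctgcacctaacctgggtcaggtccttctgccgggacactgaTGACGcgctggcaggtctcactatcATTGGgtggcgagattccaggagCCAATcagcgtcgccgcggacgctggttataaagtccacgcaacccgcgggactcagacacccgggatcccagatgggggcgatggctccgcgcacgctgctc
B2m, chr2:122147437-122147736, plus strand: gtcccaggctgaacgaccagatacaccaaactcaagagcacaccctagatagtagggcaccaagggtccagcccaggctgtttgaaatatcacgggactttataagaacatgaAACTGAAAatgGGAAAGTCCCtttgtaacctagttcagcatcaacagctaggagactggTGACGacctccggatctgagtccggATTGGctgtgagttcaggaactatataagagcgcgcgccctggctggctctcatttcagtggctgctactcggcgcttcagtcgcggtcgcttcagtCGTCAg
Tap1, chr17:34187306-34187605, plus strand: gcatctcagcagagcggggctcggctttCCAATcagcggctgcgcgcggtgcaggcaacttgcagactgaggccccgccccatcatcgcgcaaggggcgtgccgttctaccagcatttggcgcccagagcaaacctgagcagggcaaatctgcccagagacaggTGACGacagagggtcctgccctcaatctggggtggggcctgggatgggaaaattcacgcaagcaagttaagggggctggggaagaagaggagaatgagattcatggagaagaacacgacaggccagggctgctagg

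H2-K1 and H2-D1 carried the same elements in the same order, an NF-kB match, an IRF core, a CREB core and CCAAT boxes in both directions. Counted from the annotated start, the IRF core lay at positions -150 to -143 in H2-D1 and at -104 to -97 in the H2-K1 window shown. From another RefSeq start of H2-K1 the same core lies at -90 to -83. B2m held the same kinds of element, with the IRF core ahead of the NF-kB match, at positions -137 to -130. Its core forms part of a longer tandem match, GAAA repeated after a spacer of 2 bases, which H2-T23 also held. An IRF core and an NF-kB match stood together in 3 of the 9 genes (H2-K1, H2-D1 and B2m) and in 1.47% of all 32851 RefSeq windows. The NF-kB letters were fixed after these windows were read, so the figures are a description and no test. H2-K1 and H2-D1 are close relatives, with reading frames 91.5% identical, and a gene was counted once over all its windows. Alone, the IRF core was found in 4 of the 9 genes and in 23.9% of all windows, the NF-kB site in 3 genes and 8.46%, the CREB core in 5 genes and 20.8%, and the CCAAT box in 7 genes and 37.4%. The tandem match was in 2 genes and in 3.44% of all windows. Psmb8 and Psmb10 held none of these motifs. Psmb9, Tap1 and Psmb8, with the highest log2 ratios of the 10 genes (2.34, 2.12 and 1.98), held neither IRF core nor NF-kB match. B2m, which held both, had the lowest ratio (0.91), and a link between matches and ratios was not tested. A match describes letters in a window and is no evidence of binding, and sites outside these windows were not searched.

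Tap1 and Psmb9 lie head to head. Their annotated starts are 226 bases apart on opposite strands, so that 275 bases of the Tap1 window shown also belong to the Psmb9 window. A CREB core and a CCAAT box lie in the shared stretch, and neither the IRF core nor the NF-kB site was matched in these windows. Of the 10 genes, 8 lie on chromosome 17, which holds the mouse MHC, while B2m lies on chromosome 2 and Psmb10 on chromosome 8.

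In the ClpP siRNA library, 9 of the 10 genes were at least 2-fold higher, 0 were at least 2-fold lower, and B2m stood below the 2-fold limit. Among the 11087 genes with a mean FPKM of at least 1, 5.19% were at least 2-fold higher and 2.04% at least 2-fold lower. Because the 10 genes were chosen with earlier results of these data known, the count is a description and no test. The median log2 ratio was 1.75 over the 10 genes and -0.01 over all 11087. The 9 genes past 2-fold lay between 1.51 (H2-T23) and 2.34 (Psmb9), a range of 0.83. The 2-fold limit itself narrows this range, because it leaves out B2m (0.91). Leaving out the H2 genes, which can exchange reads, 6 of 7 were past 2-fold. With the authors' deposited log2 values in place of FPKM the count was again 9.

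**Figure D1:**
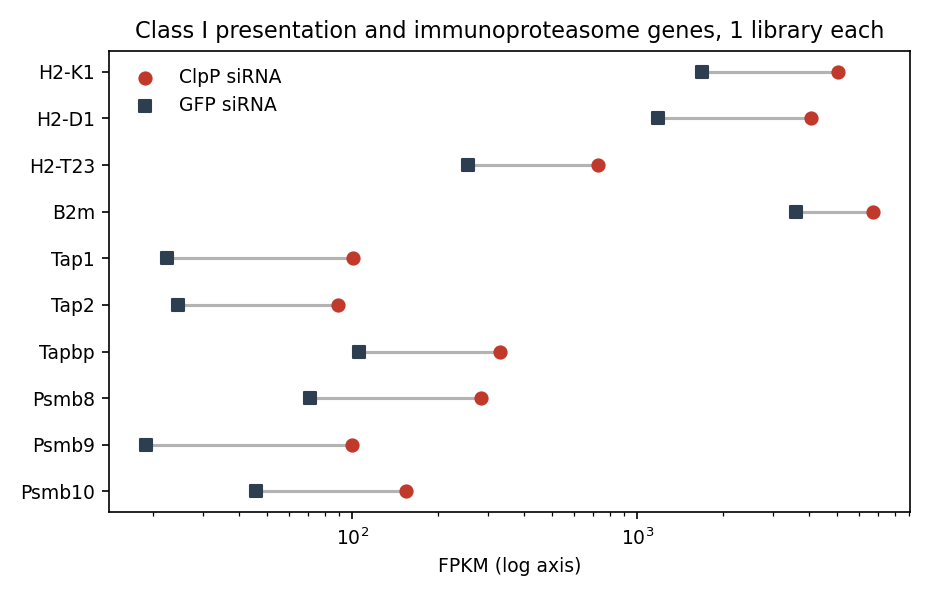
FPKM of the 10 genes on a log axis, with 1 point per library (circles, ClpP siRNA; squares, GFP siRNA) and a line joining the points of a gene. All 10 circles lie to the right of their squares, with the shortest line for B2m (6726 and 3589.6 FPKM) and the longest for Psmb9 (99.7 and 18.9 FPKM).

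The classical heavy chains were among the most abundant of the 10 genes in both libraries. H2-K1, which presents peptides to CD8 T cells, had 5039.7 FPKM with ClpP siRNA and 1681 FPKM with GFP siRNA, a log2 ratio of 1.58. H2-D1, the other classical heavy chain with a high level here, had 4056 FPKM with ClpP siRNA and 1184 FPKM with GFP siRNA, a log2 ratio of 1.77. H2-T23 encodes Qa-1, a non-classical heavy chain that presents leader peptides to the inhibitory receptor NKG2A of natural killer cells. It had 729 FPKM with ClpP siRNA and 255 FPKM with GFP siRNA, a log2 ratio of 1.51. The level of H2-K1 was 6.91 times that of H2-T23 with ClpP siRNA and 6.59 times with GFP siRNA, so the proportion between these chains was close in both libraries.

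Reads of heavy chain genes can be shared, and the level of a single gene is therefore uncertain. The longest open reading frames of H2-K1 and H2-D1 in GENCODE M21 were 91.5% identical in aligned bases, those of H2-K1 and H2-T23 83.4%, and those of H2-D1 and H2-T23 81.2%. Words of 50 bases found in another annotated gene made up 6.87% of the words of H2-K1 transcripts, 13.9% of those of H2-D1 and 28.8% of those of H2-T23. B2m, Psmb8, Psmb9 and Psmb10 shared 0 words, and Tap1 and Tap2 shared 25 with each other. Only genes annotated in GENCODE M21 were searched. Sharing with genes of the expression table that it lacks was not counted, so these shares can be too low. The 3 heavy chains summed to 9825 FPKM with ClpP siRNA and 3120 FPKM with GFP siRNA, 3.15-fold higher. A sum depends less on how reads were divided among the 3. It does not remove the uncertainty, since FPKM is corrected for transcript length and words were also shared with genes outside the 3. Over all 20 H2 heavy chain genes listed the sum was 3.30-fold higher with ClpP siRNA.

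B2m had the highest level of the 10 genes and the smallest difference. It stood at 6726 FPKM with ClpP siRNA and 3589.6 FPKM with GFP siRNA, a log2 ratio of 0.91, and 5.90% of the 11087 genes had a ratio at least as high. The light chain was therefore less abundant than the sum of the 3 heavy chains in the ClpP siRNA library and more abundant in the GFP siRNA library. Heavy chain FPKM per B2m FPKM was 1.46 with ClpP siRNA and 0.869 with GFP siRNA. Over all 20 H2 heavy chain genes listed, that quotient was 1.86 with ClpP siRNA and 1.06 with GFP siRNA.

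The other heavy chain genes of the region gave a similar picture. Of 17 in the table, 14 had a mean FPKM of at least 1, with a median log2 ratio of 2.09. Of these, 12 were at least 2-fold higher with ClpP siRNA and 0 lower, beside 5.19% higher among all 11087 genes. Their summed level was 2708 FPKM with ClpP siRNA and 674 FPKM with GFP siRNA. H2-T9 had the highest level of them with ClpP siRNA. It had 729 FPKM under ClpP siRNA, 87.7 FPKM under GFP siRNA and a log2 ratio of 3.04. Genes of the Q region, Q4, Q7, Q8 and Q9, which include genes of the Qa-2 antigens, stood at 225 to 351 FPKM with ClpP siRNA and at 47.9 to 108 FPKM with GFP siRNA. H2-T24 was low in both libraries, with 9.31 FPKM under ClpP siRNA and 0.455 FPKM under GFP siRNA. Its log2 ratio of 2.82 ran from 1.39 to 4.08 with the pseudocount, and it passed the filter only through its level with ClpP siRNA. The other genes past 2-fold were H2-T10 (log2 ratio 2.48, or 1.79 with a pseudocount of 5), H2-T22 (2.44), H2-Q5 (2.10), H2-K2 (1.85), H2-L (1.72) and H2-Q1 (1.63). The reading frames of H2-T10 and H2-T22 were 96.9% identical. Reads can be shared among these genes too, so the 12 are not separate measurements.

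H2-Q10 stood apart from its neighbours. This gene encodes a secreted class I protein made mainly by the liver. It had 168 FPKM with ClpP siRNA and 145 FPKM with GFP siRNA, a log2 ratio of 0.22, within the 16th and 84th percentiles of all genes (-0.36 and 0.40). H2-M3, which presents N-formylated peptides, had 8.36 FPKM with ClpP siRNA and 3.71 FPKM with GFP siRNA, and its ratio of 0.99 fell just short of 2-fold.

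**Figure D2:**
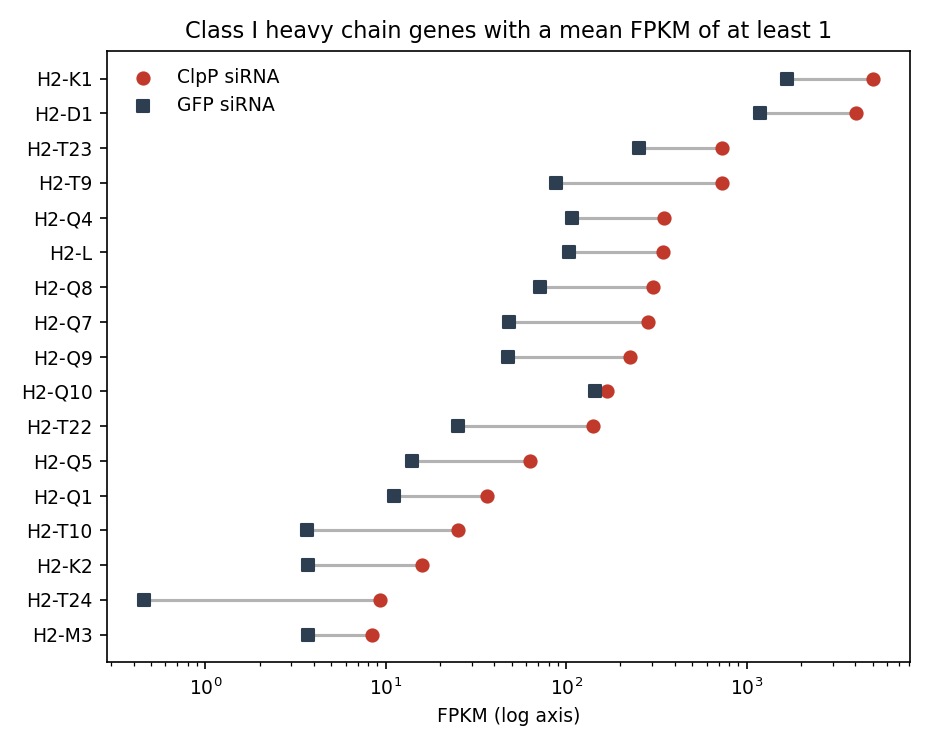
FPKM (log axis) of the 17 heavy chain genes of the H2 region with a mean of at least 1, ordered by level in the ClpP siRNA library (circles, ClpP siRNA; squares, GFP siRNA; 1 library each). Every circle lies to the right of its square, with the symbols of H2-Q10 (168 and 145 FPKM) almost touching.

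Proteins with the class I fold encoded outside the H2 genes differed less in most cases. Of 7 measured, only Procr, the endothelial protein C receptor, was past 2-fold, with 21.9 FPKM under ClpP siRNA, 4.56 FPKM under GFP siRNA and a log2 ratio of 2.04. Hfe, the iron regulator that also binds B2m, had 0.71. Fcgrt, the B2m-dependent neonatal Fc receptor, had -0.01, and Mr1, which presents vitamin metabolites to innate-like T cells, had 0.14. The lipid-presenting Cd1d1 had 31.4 FPKM with ClpP siRNA and 45.4 FPKM with GFP siRNA, a ratio of -0.52.

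Both transporter subunits were higher with ClpP siRNA. Tap1 had 100.3 FPKM with ClpP siRNA and 22.3 FPKM with GFP siRNA, a log2 ratio of 2.12. Tap2 had 88.9 FPKM with ClpP siRNA and 24.5 FPKM with GFP siRNA, a ratio of 1.82. The TAP transporter is a heterodimer, and the level of Tap1 per Tap2 was 1.13 with ClpP siRNA and 0.913 with GFP siRNA. Tap1 and Psmb9 had the highest ratios of the 10 genes. Tap1 was the nearest of all genes to Psmb9 in the plane of both log2 levels, at a distance of 0.23. The nearest gene to Tap1 was another, LOC100048884, at 0.05. Any part of the promoter stretch that Tap1 and Psmb9 share in these ratios was not tested.

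Tapbp encodes tapasin, which links TAP to class I molecules awaiting peptide. It had 329 FPKM with ClpP siRNA and 106 FPKM with GFP siRNA, a log2 ratio of 1.63. The other loading and trimming factors of the endoplasmic reticulum differed less, and 1 of 11 was past 2-fold, with a median of 0.36. Erap1, the aminopeptidase that trims peptides to class I length, had 57.3 FPKM with ClpP siRNA and 27.3 FPKM with GFP siRNA. Its ratio of 1.04 fell below the limit under 3 other settings, with a lowest value of 0.95. Tapbpl, a tapasin-related peptide editor, had 0.95. Calr and Pdia3, chaperones of the loading complex that serve many glycoproteins, had 0.64 and 0.36, and Canx had -0.09.

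The immunoproteasome subunits were higher with ClpP siRNA while their standard counterparts differed little. Psmb8, the inducible beta5 subunit, had 283 FPKM with ClpP siRNA and 71.1 FPKM with GFP siRNA, a log2 ratio of 1.98. Psmb9, the inducible beta1 subunit, had 99.7 FPKM with ClpP siRNA and 18.9 FPKM with GFP siRNA, a ratio of 2.34. Psmb10, the inducible beta2 subunit, had 155 FPKM with ClpP siRNA and 45.9 FPKM with GFP siRNA, a ratio of 1.73. Psmb8 was the most abundant of these subunits and Psmb9 the least in both libraries.

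Each inducible subunit was set beside the standard subunit of the same site. Psmb5 had 176 FPKM with ClpP siRNA and 171 FPKM with GFP siRNA, a log2 ratio of 0.04, and the ratio of Psmb8 exceeded it by 1.93. Psmb6 had 164 FPKM with ClpP siRNA and 134 FPKM with GFP siRNA, a ratio of 0.29, and that of Psmb9 exceeded it by 2.05. Psmb7 had 207 FPKM with ClpP siRNA and 166 FPKM with GFP siRNA, a ratio of 0.32, and that of Psmb10 exceeded it by 1.42. The sign for Psmb5 depended on the scaling, with a log2 ratio of -0.08 from the authors' deposited log2 values and -0.03 after upper quartile scaling.

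The inducible share of transcript at each site, which does not depend on library scaling, differed between the libraries at all 3 sites. Psmb8 made up 61.7% of the beta5 pair with ClpP siRNA and 29.4% with GFP siRNA. Psmb9 made up 37.8% of the beta1 pair with ClpP siRNA and 12.3% with GFP siRNA. Psmb10 made up 42.8% of the beta2 pair with ClpP siRNA and 21.7% with GFP siRNA. Only at the beta5 site did the inducible form exceed the standard form, and only in the ClpP siRNA library. Over the 3 sites together the inducible share was 49.6% with ClpP siRNA and 22.4% with GFP siRNA. Within each pair the open reading frames were 63.4% to 68.1% identical in aligned bases, and the inducible genes shared no 50-base word with another gene. These are shares of RNA, and protein in assembled proteasomes was not measured.

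**Figure D3:**
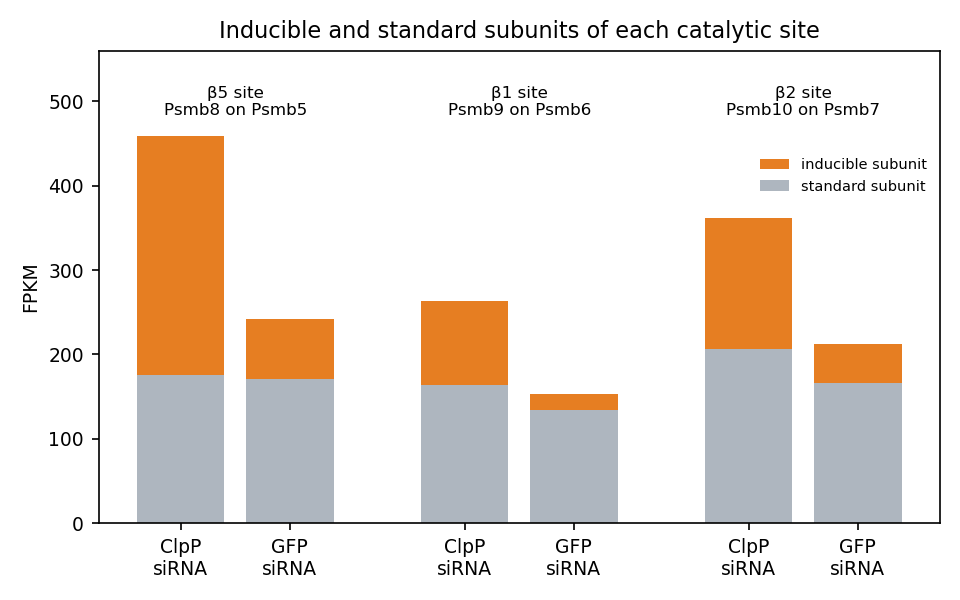
Stacked FPKM of the standard (grey) and inducible (orange) subunit at each catalytic site of the proteasome, with 1 bar per library and no error, since each group held 1 library. The grey parts are of like height within a site (176 and 171 FPKM for Psmb5) while the orange parts are taller with ClpP siRNA (283 and 71.1 FPKM for Psmb8).

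The rest of the standard proteasome differed little between the libraries. Of 32 other genes of the 20S core and the 19S regulatory particle, 0 were past 2-fold in either direction, the log2 ratios ran from -0.36 to 0.44, and the median was 0.16. Among activators and assembly factors, Psme1, a subunit of the interferon-inducible activator PA28, had 351 FPKM with ClpP siRNA and 148 FPKM with GFP siRNA, a ratio of 1.24. Its partner subunit Psme2 had 211 FPKM with ClpP siRNA and 129 FPKM with GFP siRNA, a ratio of 0.71. Psme2b had 16.2 FPKM with ClpP siRNA and 0.654 FPKM with GFP siRNA, a ratio of 3.38 (1.91 to 4.44 with the pseudocount), but its reading frame is 99.3% identical to that of Psme2. Summed with Psme2 it gave 227 FPKM with ClpP siRNA and 129 FPKM with GFP siRNA, a ratio of 0.81. The nuclear activator subunit Psme3 had -0.07 and Psme4 had -0.35. The maturation factor Pomp, which is needed to build new cores of either kind, had 0.24.

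Cytosolic peptidases, which trim or destroy proteasome products, differed little. Of 10 in the table, 0 were past 2-fold and the median log2 ratio was -0.04. Lap3, an interferon-inducible leucine aminopeptidase, had 98.6 FPKM with ClpP siRNA and 86.0 FPKM with GFP siRNA, a ratio of 0.20. Tpp2 had -0.09 and Thop1, which degrades class I peptides, 0.29.

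Among 12 genes of the factors that transcribe class I genes, 1 was at least 2-fold higher and 0 lower, with a median log2 ratio of 0.15. This was Irf1, which binds IRF elements and had 49.96 FPKM with ClpP siRNA and 24.5 FPKM with GFP siRNA. It lay at the 2-fold limit, and its log2 ratio was 0.90 with a pseudocount of 5. Nlrc5, the class I transactivator, had 13.2 FPKM with ClpP siRNA and 6.71 FPKM with GFP siRNA, a ratio of 0.88. Genes of the factors at the CCAAT and neighbouring X boxes were nearer 0, with Rfx5 at 0.66, Nfya at -0.57 and Nfyb at 0.13. The NF-kB subunits Nfkb1 and Rela had -0.12 and -0.30.

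Class II genes and ligands of lymphocyte receptors past 2-fold were at low levels. Of 7 class II genes in the table, 4 passed the filter and 2 were higher, beside 5.19% of all genes that passed it. Cd74, the invariant chain, had 13.8 FPKM with ClpP siRNA and 0.863 FPKM with GFP siRNA. Its log2 ratio of 2.99 ran from 1.68 to 3.85 with the pseudocount, and it passed the filter only through its level with ClpP siRNA. H2-Ab1, a class II beta chain, had 3.92 FPKM with ClpP siRNA and 1.18 FPKM with GFP siRNA, a ratio of 1.17 that was 0.53 with a pseudocount of 5. Of 10 ligand genes that passed the filter, 3 were higher. Cd274, which encodes the checkpoint ligand PD-L1, had 10.96 FPKM with ClpP siRNA and 1.86 FPKM with GFP siRNA, a ratio of 2.07 that was 1.22 with a pseudocount of 5. Raet1d, a ligand of the activating receptor NKG2D with close copies, had 1.79, and the costimulatory receptor Cd40 had 1.53. With a pseudocount of 5 these were 1.002 and 0.77, so that Cd40 was no longer past 2-fold. Pvrl2, the ligand gene with the highest level, fell just short of 2-fold. It had 181 FPKM with ClpP siRNA and 92.6 FPKM with GFP siRNA, a ratio of 0.96.

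**Figure D4:**
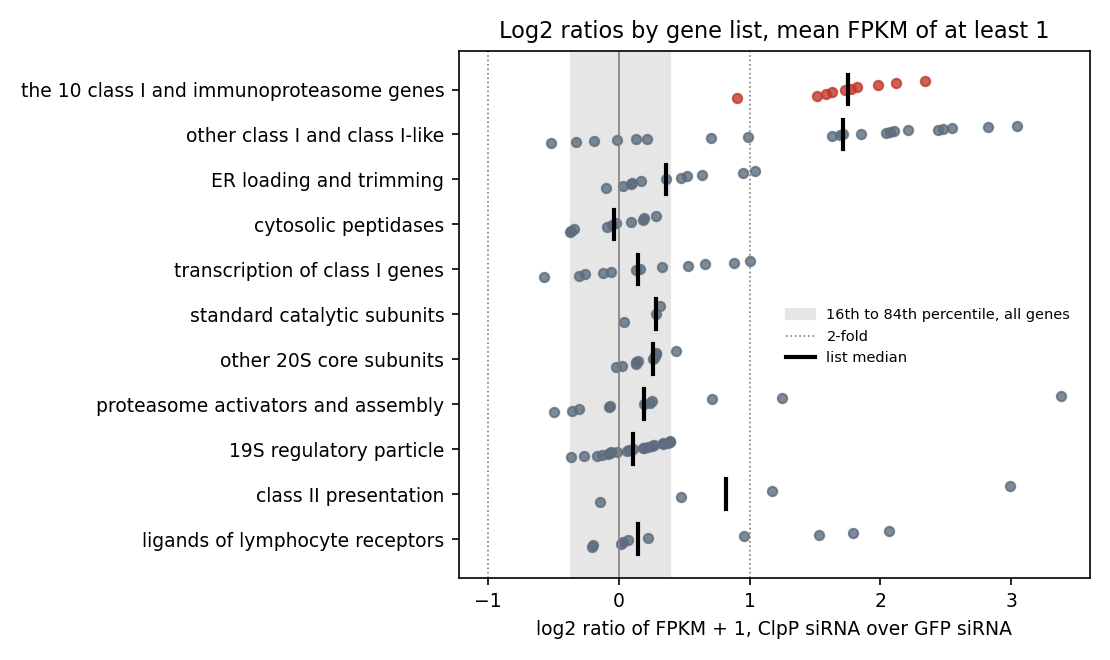
Log2 ratio of FPKM + 1, ClpP siRNA over GFP siRNA, for each gene with a mean FPKM of at least 1 (points), by list, with list medians (black bars), the 2-fold limits (dotted) and the 16th to 84th percentile of all genes (grey band, -0.36 to 0.40). The 10 class I and immunoproteasome genes have a median of 1.75, while the median of the standard catalytic subunits is 0.29 and that of the 19S particle 0.11.

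Immune cells express these genes strongly, so their markers were read in the same libraries. In bulk RNA, fewer cells of a type and less RNA per cell cannot be told apart. Of 12 macrophage marker genes, 11 were in the table, with a summed level of 233 FPKM with ClpP siRNA and 41.4 FPKM with GFP siRNA. Cd68, a lysosomal protein, was the largest part of both sums, with 226 FPKM under ClpP siRNA and 24.9 FPKM under GFP siRNA. The other 10 summed to 6.65 FPKM with ClpP siRNA and 16.6 FPKM with GFP siRNA. Clec4f, which marks Kupffer cells, was at 0.0718 FPKM with ClpP siRNA and 0.777 FPKM with GFP siRNA. Ptprc, the pan-leukocyte antigen CD45, was at 0.0696 FPKM with ClpP siRNA and 0.0817 FPKM with GFP siRNA. It was the only one of 13 lymphocyte markers in the table. Of 7 dendritic cell markers 3 were in the table, with sums of 1.78 FPKM with ClpP siRNA and 3.06 FPKM with GFP siRNA. One neutrophil marker of 6, Csf3r, was in the table, below 0.03 FPKM in both libraries. No row was at 0 in either library, so a marker missing from the table was not shown to be silent in both.

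Markers of other liver cells were read in the same way. All 9 sinusoidal endothelial markers were in the table and summed to 16.3 FPKM with ClpP siRNA and 29.2 FPKM with GFP siRNA. All 8 stellate cell and fibroblast markers were in the table and summed to 15.97 FPKM with ClpP siRNA and 35.2 FPKM with GFP siRNA. The 5 cholangiocyte markers summed to 937 FPKM with ClpP siRNA and 1629 FPKM with GFP siRNA, most of it Spp1. Without Spp1 the other 4 summed to 67.0 FPKM with ClpP siRNA and 24.8 FPKM with GFP siRNA, led by Krt19, a biliary keratin, at a log2 ratio of 2.28. The 7 hepatocyte markers summed to 7133 FPKM with ClpP siRNA and 3308 FPKM with GFP siRNA, most of it Alb, and the 6 others to 888 FPKM with ClpP siRNA and 356 FPKM with GFP siRNA. Of the 7, 5 were at least 2-fold higher, while Apob had a log2 ratio of -0.32 and Asgr1 of -0.61. The part of any of these cell types in the class I differences was not tested.

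With 2 libraries, a pattern of expression is a pair of levels, and likeness was read as distance in the plane of both log2(FPKM + 1) values. The nearest gene to H2-K1 was H2-D1, at 0.59. The nearest to B2m was Alb at 0.30, to Tapbp the heavy chain gene H2-L at 0.07, and to Tap2 Parp9, an interferon-inducible gene, at 0.13. Psmb8 lay nearest to Id3 at 0.06, Psmb10 to Mbl2 at 0.19, H2-T23 to Grn at 0.12, and Tap1 to LOC100048884 at 0.05. Nearness here reflects level as much as difference, and many genes share a like pair of values.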

How the data were processed

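Poly-A RNA of 1 ClpP siRNA and 1 GFP siRNA library of primary mouse hepatocytes was prepared with the Illumina TruSeq RNA kit, per the labels' protocols. The submitters' processing notes name STAR 2.4.0f1, Cufflinks 2.2.1, TopHat2 2.0.13, Bowtie2 2.2.3, FastQC 0.10.0 and Trimmomatic 0.32. Their roles, and the genome build, are not given in the sources used here. Per the file headers, the deposited table gives FPKM computed by the authors. Its deposited log2 columns equal log2(FPKM + 1) after quantile normalization of both libraries, to within 0.001. The authors' deposited signed fold change, treated as a score, follows from those columns and was used only to check them. The column read as ClpP siRNA is named by an abbreviation and was assigned from its name.

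Of 14346 rows, 7 named no gene (0.0335% of FPKM with ClpP siRNA, 0.0475% with GFP siRNA) and were left out. No row was at 0 in either library, so a gene silent in either was not analysed here. FPKM keeps no counts, depth is unknown, and no interval or floor can be given. Genes with a mean FPKM of at least 1 were kept (11087), the pseudocount was 1, and 2-fold was a limit of size. Nothing says whether the cells of each library came from separate animals. The procedure was tested on simulated data. The 10 genes, the pathway and marker lists, the motifs and the rule for named genes (all 10 genes, listed genes past 2-fold, the standard catalytic subunits, up to 4 others per list by size or level, and nearest genes) were chosen with earlier results of these data known. The NF-kB motif (the usual 10-letter consensus) was fixed after the windows were read. In the list of class I transcription factors, 1 gene was left out of that list's counts and is not reported here. A few genes, such as H2-M3 and Cd1d1, and sums were named after their values were seen. Promoter windows came from RefSeq GRCm38.p6 and transcripts from GENCODE M21 (aligned with Biopython 1.88), which may differ from the authors' annotation. Python 3.11.15 and pandas 2.3.3 were used. Alternatives were other pseudocounts (0.1 and 5), scalings and filters.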

Additional observations from a re-analysis of the deposited data

How the results depend on the processing

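The 10 genes, the listed genes near or past 2-fold, the list medians and the gene counts were recomputed under 8 alternatives. In all of them 9 of the 10 genes were at least 2-fold higher and 0 lower, and B2m stayed below 2-fold, between 0.83 and 0.91 on the log2 scale. The median of the 10 ran from 1.66 to 1.76. The excess of the inducible over the standard subunit ran from 1.88 to 1.95 for Psmb8, from 1.85 to 2.11 for Psmb9 and from 1.34 to 1.47 for Psmb10. The 3 heavy chains together were 3.15-fold higher, or 3.005-fold from the authors' log2 values and 3.13-fold after rescaling to equal sums. A ratio, excess or median counted as unchanged if it kept its side of 2-fold, with no change of sign by more than 0.1. A count, share or fold of a sum counted as unchanged if it stayed within 1.5 times. By these rules 465 of 482 recomputed values were unchanged. This total overstates the stability, because some of the values could not change. The other filters leave the log2 ratio of a gene and the excesses as they are, and all 10 genes passed them. The count of 9 was therefore fixed under those filters. Centring on the median of all genes (-0.01) moved every ratio by the same small amount and left the excesses unchanged. Among counts over all genes, with a pseudocount of 5, 327 were higher and 89 lower (575 and 226 in the main setting). Lower genes numbered 357 with a pseudocount of 0.1 and 142 with a mean FPKM of at least 5. Erap1 and Irf1 fell short of 2-fold with a pseudocount of 5, with the authors' log2 values and with upper quartile scaling, and Cd40 and H2-Ab1 with a pseudocount of 5. H2-M3 passed 2-fold with a pseudocount of 0.1 (1.15) and after rescaling to equal sums (1.06). The class II median of 0.82 was 1.22 with a pseudocount of 0.1, 0.35 with a pseudocount of 5, 0.42 with no filter and 1.42 with a mean FPKM of at least 5. The ratio of Psmb5 changed sign under 2 scalings. No paired analysis was possible because each group held 1 library and no test was run. The unknown depth limits what can be said of genes of low FPKM.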
